A study of Homo sapiens with 12 samples.

Results

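The collagen genes are the 44 protein-coding genes whose symbols have the form COL, a type number, A and a chain number, taken from 48283 features counted in the uveal melanoma cell lines MP38 and 92.1. All 44 were present in the count tables of both lines. RNA was measured in 12 libraries, 3 for each of 4 groups: MP38 in DMSO, MP38 in VE-822, 92.1 in DMSO and 92.1 in VE-822, each for 72 hours. VE-822 (berzosertib) inhibits ATR, a kinase of the response to replication stress, and DMSO is its solvent. Both lines are established human cultures of a melanoma that starts from melanocytes of the eye. The labels state that the dose was set in each line to leave about 40% of cells viable and do not give it, so dose and line cannot be told apart. Nothing in them ties the 3 libraries of each group to cultures grown apart, so p-values measure only the spread between libraries, which could be technical.

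Collagens are extracellular proteins built from 3 chains wound into a triple helix. Fibrillar collagens form the fibres of connective tissue, and fibril-associated collagens with interrupted triple helices (FACITs) sit on the surface of those fibres. Type IV chains form the network of basement membranes, type VI forms beaded filaments, and type VII anchors epithelia. In uveal melanoma, matrix with collagen and laminin forms looping patterns around nests of tumour cells.

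Total counts were 54415628 to 63638976 per library in MP38 and 112374503 to 137664800 in 92.1. All 9 melanocyte markers looked at, among them MITF, SOX10 and PMEL, were at 1 CPM (a count divided by its library total and put on one scale) or more in every group. The stromal cells that make most collagen in tissue were checked by 9 markers, of which DCN was at 0 in all 6 DMSO libraries. None of the 9 reached 1 CPM in MP38, and their summed level was 0.451 to 0.95 CPM under DMSO and 1.05 to 1.45 CPM under VE-822. In 92.1 only FBLN1 and PDGFRA did, and the summed level was 206 to 223 CPM under DMSO and 114 to 118 CPM under VE-822, nearly all of it FBLN1. No immune marker reached 1 CPM in DMSO, and VWF was the only endothelial marker to do so (2.24 CPM, MP38). The epithelial markers KRT8 and KRT18 were at 15.1 and 47.8 CPM in MP38 in DMSO. In 92.1, DMSO library 3 stood apart. Its counts differed from those of DMSO libraries 1 and 2 by a chi-square per gene of 82.0 and 82.6, against 2.30 to 7.45 for every other pair of replicates. Values of collagen genes without it are given where it changes a call or a direction, or moves a printed log2 fold change by over 1.5 times.

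A pair of upstream sequences is shown first, because the type IV genes they stand beside differed between the lines. Type IV genes lie in head-to-head pairs. RefSeq (GRCh38.p14) places 126 bases between the start sites of COL4A1 and COL4A2, 379 between those of COL4A6 and COL4A5, and 418 between those of COL4A4 and COL4A3. The stretch between COL4A1 and COL4A2 lies at chr13:110307158-110307283 and the 250 bases before the COL4A5 start at chrX:108439588-108439837. Both are written 5′ to 3′ on the plus strand, with matches to CCAAT and GGGCGG on either strand in capitals.
COL4A1-COL4A2: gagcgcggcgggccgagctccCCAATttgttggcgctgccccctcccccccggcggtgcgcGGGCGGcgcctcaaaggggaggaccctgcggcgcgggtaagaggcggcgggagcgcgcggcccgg
COL4A5: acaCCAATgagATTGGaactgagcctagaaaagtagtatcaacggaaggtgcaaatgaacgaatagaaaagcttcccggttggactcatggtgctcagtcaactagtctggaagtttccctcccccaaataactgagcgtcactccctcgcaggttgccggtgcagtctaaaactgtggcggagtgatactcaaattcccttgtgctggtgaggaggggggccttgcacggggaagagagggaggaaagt
The first stretch is 80.2% G and C, and the second 51.2%. The first holds 1 CCAAT and 1 GGGCGG, motifs found in 21.1% and 34.6% of 35116 RefSeq promoters over the same 126 bases before the start. The second holds 2 CCAAT, 1 on each strand, and no GGGCGG. Over 250 bases, 32.0% of promoters hold CCAAT and 42.6% hold GGGCGG. Neither stretch holds TATAAA or CACGTG. These are matches of letters only.

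In untreated cells, MP38 held about 3 times the share of collagen reads that 92.1 held. Collagen genes took 0.271% ± 0.00445 of counts in MP38 (SD, n = 3) and 0.0876% ± 0.00676 in 92.1. Levels between genes are compared per length, as FPKM (counts scaled for gene length and for the library's total) from the deposited tables. COL9A3, a chain of the FACIT type IX, was the most abundant collagen in both lines. It stood at 176, 183 and 183 FPKM in the MP38 libraries and at 35.1, 34.9 and 24.7 in those of 92.1, with library 3 the lowest. In MP38 it was followed by COL9A2 (104 ± 2.36 FPKM), COL6A1 (37.8 ± 0.602), COL4A2 (23.4 ± 0.368), COL6A2 (19.3 ± 0.130), COL5A3 (18.6 ± 0.516), COL11A2 (13.7 ± 0.426) and COL4A1 (11.03 ± 0.242). In that order COL6A2 and COL5A3 lay closest, and their libraries (19.2 to 19.4 and 18.01 to 18.95 FPKM) did not overlap. In 92.1 the order was COL9A3, COL6A1 (20.1 ± 0.409), COL6A2 (17.8 ± 0.0725), COL11A2 (9.77 ± 3.05), COL4A2 (8.93 ± 0.375), COL4A1 (6.92 ± 0.506) and COL4A5 (6.17 ± 0.0778). There COL11A2 and COL4A2 did not differ beyond their spread.

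**Figure D1:**
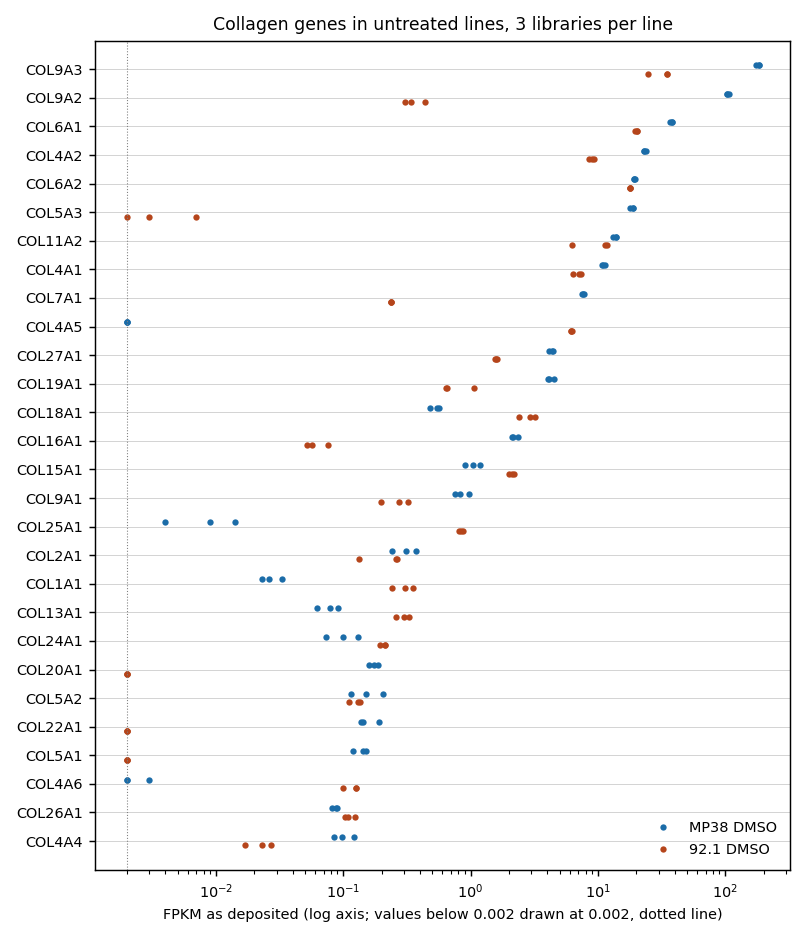
Deposited FPKM (log axis) of the collagen genes with a group mean of at least 0.1 FPKM, for the 3 DMSO libraries of MP38 (blue) and of 92.1 (orange). COL9A3 was highest in both lines, while COL9A2, COL5A3, COL7A1 and COL4A5 lay far apart between them.

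Of the 44 genes, 16 had a mean of at least 1 CPM over the 6 libraries of each line, 5 only over those of MP38, 6 only over those of 92.1 and 17 in neither. Those in MP38 alone were COL4A4, COL5A1, COL5A3, COL20A1 and COL22A1. Those in 92.1 alone were COL1A1, COL4A5, COL4A6, COL5A2, COL24A1 and COL25A1. The 17 below that level in both lines included chains that dominate connective tissue. COL1A2, the partner chain of COL1A1 in type I, had 3 counts in all in the 3 untreated MP38 libraries and 7 in those of 92.1. COL3A1, the chain of type III, had 2 and 7. COL6A5 had no count in any untreated library, and the limit allowed by 3 counts over a group is 0.0160 CPM in MP38 and 0.00843 CPM in 92.1. COL6A3, the chain that completes type VI with COL6A1 and COL6A2, was at 0.573 ± 0.149 CPM in MP38 and 0.0316 ± 0.00363 in 92.1. The rest were COL4A3, COL6A6, COL8A1, COL8A2, COL10A1, COL11A1, COL12A1, COL14A1, COL17A1, COL21A1, COL23A1, COL26A1 and COL28A1.

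RNA of the chains of one collagen was present in unequal amounts per length. The lengths are those of the deposited tables and differ between partners, as in COL4A1 (14662 bases) and COL4A2 (19271). The SDs below do not cover error in these lengths. Per length, COL9A2 stood at 0.574 ± 0.0134 of COL9A3 in untreated MP38 and at 0.0120 ± 0.00489 in untreated 92.1. COL9A1, the third chain of type IX, stood at 0.00471 ± 0.000572 and 0.00832 ± 0.000736 of COL9A3. COL9A2 was therefore within a few fold of COL9A3 in MP38 and far below it in 92.1. COL6A2 stood at 0.511 ± 0.00473 of COL6A1 in MP38 and 0.887 ± 0.0218 in 92.1. COL6A3 stood at 0.000712 ± 0.000180 and 7.15e-05 ± 9.50e-06 of COL6A1. COL4A1 stood at 0.472 ± 0.00404 of COL4A2 in MP38 and 0.774 ± 0.0255 in 92.1. COL2A1, which shares fibrils with type XI in cartilage, stood at 0.0226 ± 0.00466 and 0.0222 ± 0.000898 of COL11A2.

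The untreated lines were compared to see which collagen genes each line uses. Of the 44 genes, 38 passed the filter on low counts and 22 had a mean of at least 1 CPM over the 6 DMSO libraries. Of these 22, 7 were higher in 92.1 and 11 lower at an adjusted p under 0.05 (edgeR's quasi-likelihood test, Benjamini-Hochberg over all genes), and 4 did not pass. Among all genes at that level, 45.9% were higher in 92.1 and 39.5% lower. The median log2 fold change was -0.38 over the 22 and 0.10 over all genes. Genes near 0 in 1 line entered through the other line, so the counts are a description. Without scaling factors the median log2 fold change of all genes moved by -0.21, and of the 18 calls none changed direction.

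FACIT genes were lower in 92.1, 5 of 5, beside 39.5% of all genes of at least 1 CPM. COL9A2 stood at 102, 103 and 106 FPKM in MP38 and 0.306, 0.341 and 0.435 in 92.1. The groups lay far apart, with COL9A2 249-fold higher in MP38 (log2 fold change -7.96, SE 0.13, adjusted p 1.73e-10, edgeR). COL16A1, a FACIT found beside several fibril types, stood at 2.16, 2.13 and 2.35 FPKM in MP38 and 0.076, 0.057 and 0.052 in 92.1. It was 31.1-fold higher in MP38 (log2 fold change -4.96, SE 0.13, adjusted p 2.59e-09, edgeR). COL9A3, COL19A1 and COL9A1 were 4.96-fold, 4.66-fold and 2.81-fold higher in MP38. COL19A1 was at 0.645, 0.648 and 1.07 FPKM in 92.1, with library 3 the highest, and at 4.05 to 4.53 in MP38. Without that library the log2 fold changes of COL9A3, COL19A1 and COL9A1 were -2.14, -2.48 and -1.29.

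Fibrillar genes differed in both directions. COL5A3, a chain of type V, stood at 18.01, 18.95 and 18.86 FPKM in MP38 and at 0.003, 0.007 and 0.001 in 92.1 (log2 fold change -12.01, SE 0.17, adjusted p 1.13e-10, edgeR). That fold change rested on 2, 6 and 1 counts in 92.1, so its size is uncertain beyond the SE. Without 92.1 DMSO library 3 it was -11.55. COL27A1, a fibrillar chain of cartilage, was 2.36-fold higher in MP38. COL1A1, a chain of type I, stood at 0.308, 0.356 and 0.240 FPKM in 92.1 and 0.023, 0.033 and 0.026 in MP38, 12.7-fold higher in 92.1 (adjusted p 5.96e-07, edgeR). COL24A1 was 2.34-fold higher in 92.1. COL2A1, COL5A2 and COL11A2 did not pass, with log2 fold changes of -0.30, -0.13 and -0.28 (SE 0.27, 0.23 and 0.20). Those of COL2A1 and COL11A2 rested on 92.1 DMSO library 3, and both were -0.01 without it. Another type V chain, COL5A1, had 288 counts in the 3 MP38 libraries and 1 in those of 92.1, a ratio of 547 after scaling to library totals (95% interval 97.4 to 21676, counting error only).

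Basement membrane chains parted by pair. COL4A1 and COL4A2, the chains found in most basement membranes, were 1.38-fold and 2.27-fold higher in MP38 (adjusted p 0.000107 and 4.36e-08, edgeR). COL4A5, whose protein joins other type IV networks, was counted 0 times in each of the 3 MP38 libraries and stood at 6.15, 6.25 and 6.10 FPKM in 92.1. Against a floor of 3 counts over the MP38 group it was at least 4571-fold higher in 92.1. COL4A6, its head-to-head partner, had 2 counts in MP38 and 389 in 92.1, a ratio of 102 (95% interval 28.2 to 849). Both members of the X-linked pair were therefore higher in 92.1 than in MP38. COL4A6 was itself low in 92.1, at 0.117 ± 0.0159 FPKM, far below COL4A5. The deposited spans of COL4A1 and COL4A2 overlap by 1346 bases, and that of COL4A2 also takes in the 126 bases printed above. Whether counting used strand is not given in the sources used here, so reads in that stretch may belong to either gene.

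The remaining classes also differed. Type VII, COL7A1, stood at 7.44, 7.84 and 7.70 FPKM in MP38 and 0.238, 0.236 and 0.237 in 92.1, 28.03-fold higher in MP38 (adjusted p 5.46e-11, edgeR). COL6A1 was 1.63-fold higher in MP38 (adjusted p 7.14e-07, edgeR). COL6A2 did not pass (log2 fold change 0.09, SE 0.04). Its direction rested on the scaling: it was -0.12 without scaling factors (adjusted p 0.0309) and 0.11 when 92.1 DMSO library 3 was left out (adjusted p 0.00284, both edgeR). The transmembrane collagens COL25A1 and COL13A1 were 103.6-fold and 4.42-fold higher in 92.1. COL25A1 had 5, 2 and 8 counts in the MP38 libraries, so the size of its fold change is uncertain. The multiplexins COL18A1, the precursor of endostatin, and COL15A1 were 6.16-fold and 2.32-fold higher in 92.1. The FACITs that passed 1 CPM only in MP38 and not in this comparison were close to 0 in 92.1. COL20A1 had 355 counts against 3, a ratio of 225 (95% interval 76.3 to 1095), and COL22A1 had 232 against 0, at least 147-fold higher in MP38.

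**Figure D2:**
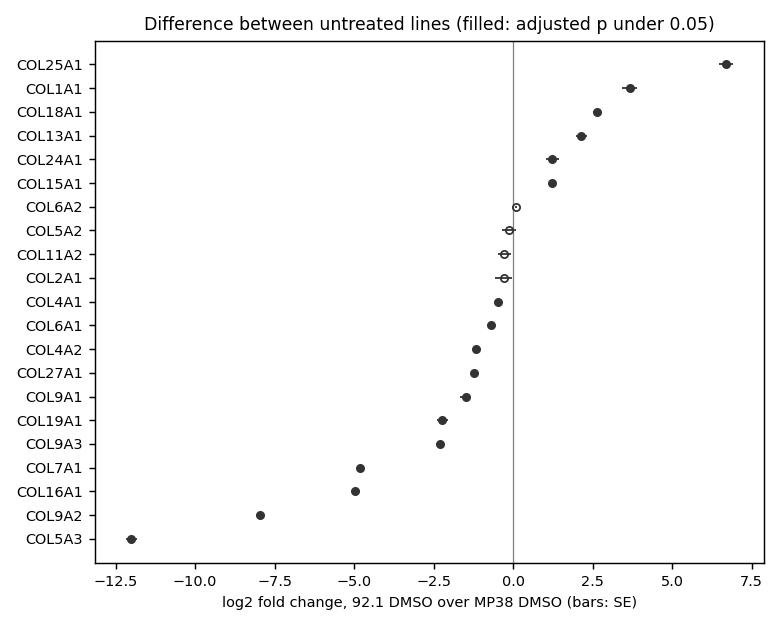
Log2 fold change of 92.1 over MP38 in DMSO (points) with its SE (bars) for 21 of the 22 collagen genes of at least 1 CPM. COL4A5, at 0 counts in MP38, is left out. COL5A3 and COL9A2 lie lowest and COL25A1 highest, and open points did not pass.

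VE-822 was compared with DMSO in each line alone. In MP38, collagen genes took 0.271% ± 0.00445 of counts under DMSO and 0.196% ± 0.00639 under VE-822. In 92.1 it was 0.0876% ± 0.00676 and 0.114% ± 0.00380. The libraries of DMSO and VE-822 did not overlap in either line, and the direction was opposite. FACIT genes held most of the summed collagen FPKM in MP38, 292 ± 6.09 in DMSO and 167 ± 7.89 in VE-822. In 92.1 the FACIT sum was 33.0 ± 5.74 in DMSO and 65.5 ± 3.69 in VE-822. Nearly all of it there was COL9A3 (31.6 ± 5.98 and 61.9 ± 3.65), with DMSO library 3 the lowest at 24.7. In MP38 most of it was COL9A3 (181 ± 4.38 and 107 ± 5.18) and COL9A2 (104 ± 2.36 and 53.3 ± 2.72). Beaded filament genes stood at 57.2 ± 0.735 and 38.0 ± 2.04 in MP38 and at 37.9 ± 0.341 and 45.7 ± 0.798 in 92.1. Basement membrane genes moved little in MP38, from 34.5 ± 0.589 to 34.8 ± 0.619. In bulk RNA, fewer cells with a transcript and less transcript per cell cannot be told apart.

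In MP38, 33 collagen genes passed the filter and 21 had at least 1 CPM. Of these, 3 were higher in VE-822, 10 lower and 8 did not pass, against 32.7% higher and 31.8% lower among all genes at that level. The median log2 fold change was -0.43 over the 21 and -0.0037 over all genes. In 92.1, 36 passed the filter and 22 had at least 1 CPM, of which 15 were higher, 4 lower and 3 did not pass. Among all genes of at least 1 CPM in 92.1, 19.4% were higher and 29% lower. The median log2 fold change was 0.52 over the 22 and -0.05 over all genes. Without 92.1 DMSO library 3 the counts were 15 higher and 5 lower. Calls over all tested genes, with no CPM minimum, then rose from 4658 to 6377 higher and from 4498 to 6899 lower. The shares of 19.4% and 29% therefore do not apply to that setting. The 4 lower calls were the least stable, with 1 left without VE-822 library 2 or without VE-822 library 3.

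Type IX collagen moved in opposite directions in the lines. COL9A3 stood at 842, 873 and 878 CPM in untreated MP38 and at 496, 508 and 566 CPM with VE-822 (log2 fold change -0.72, SE 0.05, adjusted p 5.14e-11, edgeR). In 92.1 it stood at 174, 173 and 123 CPM in DMSO and 305, 305 and 268 in VE-822 (log2 fold change 0.90, SE 0.13, adjusted p 0.000677, edgeR). The groups did not overlap in either line, and DMSO library 3 was the low one in 92.1. Without it the log2 fold change was 0.72. The span of COL9A3 overlaps TCFL5, a gene at 62.4 CPM over the libraries, and reads in the shared part are uncertain. COL9A2 stood at 427, 425 and 444 CPM in DMSO and 213, 227 and 245 in VE-822 in MP38 (log2 fold change -0.92, SE 0.05, adjusted p 1.04e-12, edgeR). In 92.1 it rose from 1.32, 1.46 and 1.89 CPM to 2.62, 2.56 and 2.55 (log2 fold change 0.72, SE 0.14, adjusted p 0.00388, edgeR). Even after the increase COL9A2 in 92.1 stayed at 0.0101 ± 0.000690 of COL9A3 per length. COL9A1 stood at 8.45, 7.73 and 9.91 CPM in DMSO and 2.13, 2.26 and 2.63 in VE-822 in MP38, a 3.71-fold decrease (adjusted p 1.32e-11, edgeR). In 92.1 it was at 3.41, 2.86 and 2.10 CPM in DMSO and 4.76, 4.65 and 4.47 in VE-822, a 1.66-fold increase (adjusted p 0.00626, edgeR). Without DMSO library 3 that log2 fold change went from 0.73 to 0.53.

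COL16A1 had the largest difference in response among the 16 genes of at least 1 CPM in both lines. It stood at 19.8, 19.4 and 21.5 CPM in MP38 in DMSO and at 5.43, 5.69 and 5.30 in VE-822, 3.69-fold lower (log2 fold change -1.88, SE 0.07, adjusted p 5.33e-15, edgeR). In 92.1 it stood at 0.722, 0.537 and 0.499 CPM in DMSO and at 3.73, 3.72 and 3.75 in VE-822, 6.38-fold higher (log2 fold change 2.67, SE 0.15, adjusted p 3.11e-06, edgeR). The lines were 31.1-fold apart in DMSO, and in VE-822 their levels were 0.583 ± 0.0313 FPKM in MP38 and 0.413 ± 0.00819 in 92.1. COL19A1, another FACIT, rose in both lines. It stood at 45.1, 49.0 and 44.2 CPM in DMSO and 67.3, 64.9 and 71.3 in VE-822 in MP38 (log2 fold change 0.56, SE 0.05, adjusted p 2.78e-09, edgeR). In 92.1 it stood at 7.29, 7.28 and 12.1 CPM in DMSO and 22.5, 22.6 and 21.1 in VE-822 (log2 fold change 1.31, SE 0.18, adjusted p 0.000627, edgeR). DMSO library 3 was here the high one, and without it the log2 fold change was 1.57. COL19A1 lies 3.6 kb from COL9A1 on chromosome 6, and in MP38 the neighbours moved in opposite directions. The span of COL19A1 overlaps LMBRD1, at 19.2 CPM over the libraries. COL22A1 in MP38 was at 1.12, 1.06 and 1.48 CPM in DMSO and 0.845, 0.972 and 0.741 in VE-822 (log2 fold change -0.51, SE 0.20, adjusted p 0.0373, edgeR). This call was lost in DESeq2 (adjusted p 0.127), in limma on FPKM (0.199), when MP38 DMSO library 3 was left out (0.196) and without VE-822 library 1 (0.0780) or 3 (0.124). COL20A1 did not pass in MP38 (log2 fold change 0.32, SE 0.14).

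**Figure D3:**
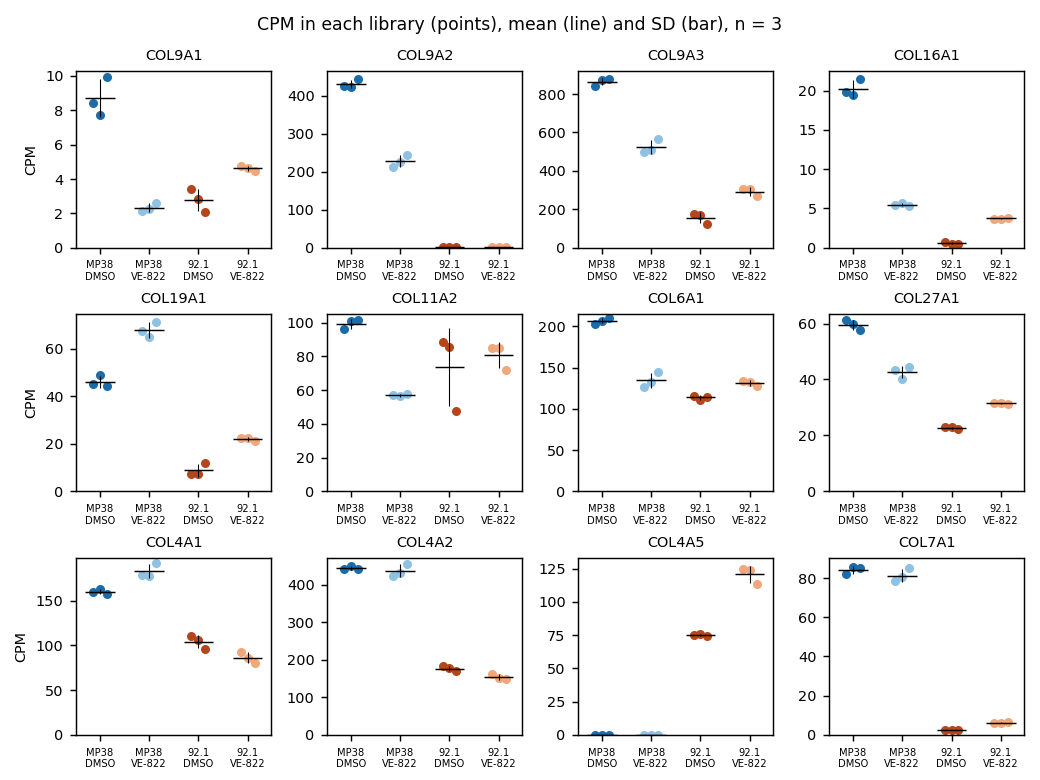
CPM of 12 collagen genes in each library (points) with the mean (line) and SD (bar) of each group of 3. COL9A1, COL9A2, COL9A3, COL16A1, COL6A1 and COL27A1 were lower in VE-822 in MP38 and higher in 92.1, and the low COL11A2 point in 92.1 is DMSO library 3.

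Among fibrillar genes, 2 of 5 were lower in VE-822 in MP38 and none higher. Among all genes of at least 1 CPM there, 31.8% were lower and 32.7% higher, so the class count is a description. COL11A2, a chain of type XI, stood at 96.0, 100.7 and 101 CPM in DMSO and 56.8, 56.3 and 57.9 in VE-822 (log2 fold change -0.80, SE 0.04, adjusted p 5.35e-13, edgeR). In 92.1 COL11A2 was at 88.3, 85.5 and 47.4 CPM in DMSO and 85.1, 85.2 and 71.6 in VE-822. These groups overlapped, and the difference did not pass (log2 fold change 0.13, SE 0.20). Without DMSO library 3 the log2 fold change was -0.14 and passed (adjusted p 0.0289, edgeR). COL2A1 did not pass in 92.1 either, at a log2 fold change of 0.07 with that library and -0.22 without it. COL27A1 stood at 61.3, 59.8 and 57.7 CPM in DMSO and 43.3, 40.2 and 44.4 in VE-822 in MP38 (log2 fold change -0.48, adjusted p 1.10e-08, edgeR). In 92.1 it stood at 22.9, 22.96 and 22.3 CPM and at 31.6, 31.5 and 31.2 (log2 fold change 0.47, adjusted p 0.000169, edgeR). The replicates of COL27A1 lay close together, and no group overlapped. COL5A3 did not pass in MP38, at 125 ± 3.19 CPM under DMSO and 127 ± 6.68 under VE-822. COL2A1 and COL5A1 did not pass in MP38 either (log2 fold change -0.43 and -0.27). COL2A1 there had an adjusted p of 0.0574 (edgeR), and it passed in 5 of the other settings, among them without MP38 DMSO library 2 (0.0155) and without VE-822 library 3 (0.00785). In 92.1, 4 of 6 fibrillar genes were higher, beside 19.4% of all genes of at least 1 CPM. COL1A1 stood at 2.85, 3.27 and 2.22 CPM in DMSO and 4.27, 5.01 and 4.76 in VE-822 (log2 fold change 0.75, SE 0.14, adjusted p 0.00343, edgeR). COL5A2 and COL24A1 had log2 fold changes of 0.66 and 0.44. The COL5A2 call was lost without VE-822 library 3 (adjusted p 0.0509), and the COL24A1 call without DMSO library 2 (0.0610) or VE-822 library 2 (0.0857, edgeR).

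Of the type IV genes in MP38, COL4A1 passed and COL4A2 and COL4A4 did not. COL4A1 stood at 159, 163 and 157 CPM in DMSO and 179, 178 and 192 in VE-822 (log2 fold change 0.20, SE 0.04, adjusted p 0.000253, edgeR). COL4A2 stood at 442, 451 and 442 CPM and at 424, 432 and 457, which overlapped (log2 fold change -0.02, SE 0.04). Per length, COL4A1 stood at 0.472 ± 0.00404 of COL4A2 in DMSO and 0.549 ± 0.00817 in VE-822, and these ratios did not overlap. In 92.1 both were lower in VE-822: COL4A1 went from 104 ± 7.43 to 86.3 ± 5.83 CPM and COL4A2 from 176 ± 7.23 to 154 ± 7.22. The log2 fold changes were -0.27 and -0.19 (adjusted p 0.0140 and 0.0203, edgeR). Both calls were lost when VE-822 library 2 (adjusted p 0.0528 and 0.0913) or VE-822 library 3 (0.0650 and 0.0846) was left out, and that of COL4A2 also when DMSO library 2 was (0.0545). In the same cells the X-linked pair rose. COL4A5 stood at 75.0, 75.7 and 74.4 CPM in DMSO and 125, 124 and 114 in VE-822 (log2 fold change 0.69, SE 0.05, adjusted p 1.75e-05, edgeR). COL4A6 stood at 0.941, 1.20 and 1.20 CPM and at 2.42, 2.34 and 2.21 (log2 fold change 1.06, SE 0.13, adjusted p 0.000362, edgeR). After VE-822 COL4A5 was at 10.4 ± 0.392 FPKM, above COL4A2 at 8.21 ± 0.263 and COL4A1 at 6.02 ± 0.309. In DMSO its FPKM lay below both. The order against COL4A2 rests on the deposited gene lengths, 11871 bases for COL4A5 and 19271 for COL4A2. In CPM, which does not correct for length, COL4A2 stayed above COL4A5 in VE-822 (154 ± 7.22 against 121 ± 6.24). In MP38, COL4A5 had 2 counts over the 6 libraries.

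The type VI chains COL6A1 and COL6A2 were lower in MP38 and slightly higher in 92.1. COL6A1 stood at 204, 207 and 209.9 CPM in DMSO and 127, 133 and 144 in VE-822 in MP38 (log2 fold change -0.62, SE 0.04, adjusted p 1.88e-10, edgeR). COL6A2, 93.1 kb away on chromosome 21, went from 102 ± 0.705 to 75.6 ± 7.18 CPM (log2 fold change -0.43, SE 0.05, adjusted p 3.43e-07, edgeR). In 92.1 the log2 fold changes were 0.21 for COL6A1 and 0.19 for COL6A2 (adjusted p 0.00665 and 0.00981, edgeR). The COL6A2 call was lost in DESeq2 (adjusted p 0.0549). In edgeR it was lost with no filter on low counts (adjusted p 0.0643) and without VE-822 library 1 (0.0559) or 2 (0.0704). COL6A3 stayed below 1 CPM in all groups. In MP38 it was at 0.573 ± 0.149 CPM in DMSO and 0.856 ± 0.0218 in VE-822, the opposite order to COL6A1 and COL6A2, with no overlap. In 92.1 it was at 0.0316 ± 0.00363 and 0.0746 ± 0.0236. COL7A1 stood at 2.72, 2.67 and 2.71 CPM in DMSO and 5.87, 6.02 and 6.38 in VE-822 in 92.1, a 2.25-fold increase (adjusted p 1.19e-05, edgeR). In MP38, where it was far higher, COL7A1 did not pass (84.2 ± 2.00 and 81.3 ± 3.55 CPM).

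Of the other collagens, COL13A1 rose in both lines. This transmembrane collagen stood at 0.711, 1.03 and 0.887 CPM in DMSO and 1.47, 1.48 and 1.66 in VE-822 in MP38 (log2 fold change 0.81, SE 0.18, adjusted p 0.000881, edgeR). In 92.1 it went from 3.49 ± 0.428 to 5.19 ± 0.295 CPM (log2 fold change 0.57, SE 0.11, adjusted p 0.00328, edgeR). COL25A1 in 92.1 was at 7.51 ± 0.284 CPM in DMSO and 6.44 ± 0.0608 in VE-822 (log2 fold change -0.22, adjusted p 0.0331, edgeR). That call was lost without DMSO library 1 and without any one of the 3 VE-822 libraries (adjusted p 0.0751 to 0.119). COL18A1 fell in MP38, from 4.03, 4.52 and 4.76 CPM to 2.11, 2.16 and 2.44 (log2 fold change -0.99, SE 0.11, adjusted p 3.30e-07, edgeR). Its span overlaps SLC19A1, at 43.9 CPM over the libraries. In 92.1 COL18A1 was at 24.6 ± 3.47 CPM in DMSO and 29.3 ± 1.30 in VE-822. The difference missed the threshold (adjusted p 0.0721, edgeR) but passed when DMSO library 1 was left out (0.0416). Without DMSO library 3 the log2 fold change went from 0.25 to 0.12 (adjusted p 0.0534). COL15A1 fell in 92.1, from 14.6, 13.5 and 14.9 CPM to 10.2, 9.55 and 8.28 (log2 fold change -0.62, SE 0.09, adjusted p 0.000731, edgeR), and did not pass in MP38 (log2 fold change 0.03, SE 0.09).

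**Figure D4:**
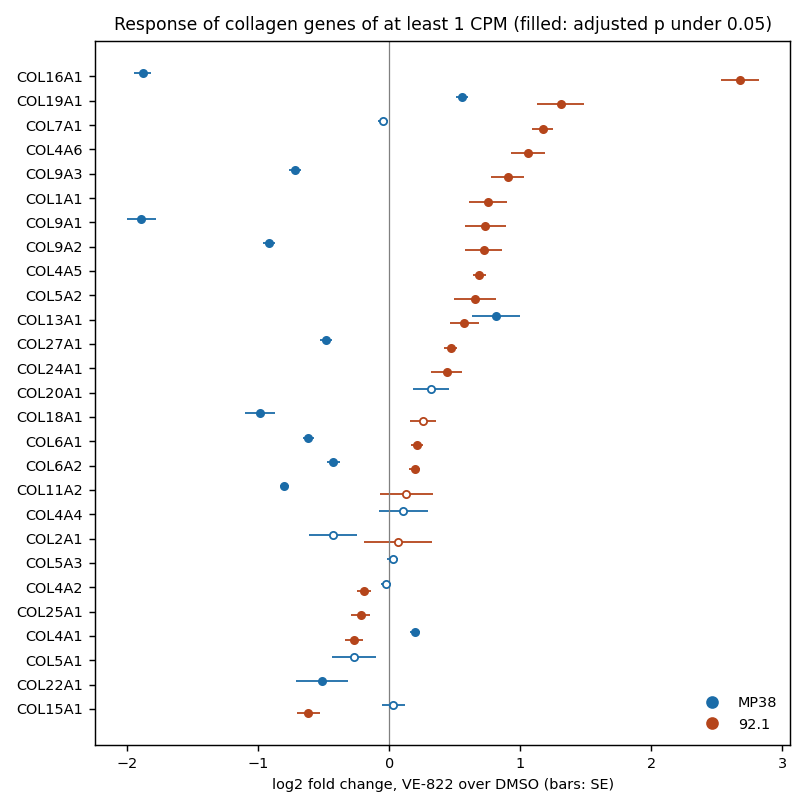
Log2 fold change of VE-822 over DMSO (points) with its SE (bars) in MP38 (blue) and 92.1 (orange), for collagen genes of at least 1 CPM in that line, with open points for those that did not pass. Most orange points lie right of 0 and most filled blue points left of it, with COL19A1 and COL13A1 to the right in both lines.

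Whether the lines responded differently was tested in 1 fit of all 12 libraries, as the 92.1 response minus the MP38 response. The test uses the same DMSO and VE-822 libraries as the comparisons above. Of 40 collagen genes that passed the filter, 23 had at least 1 CPM over the 12 libraries, of which 14 were higher, 3 lower and 6 did not pass. Among all genes at that level, 26.5% were higher and 28.8% lower, and the median was -0.0014 against 0.86 for the 23. Some of the 23 were near 0 in 1 line, so the rest concerns the 16 of at least 1 CPM in both lines, a restriction chosen after their levels were seen. Of these, 11 were higher in 92.1 than in MP38 in their response, COL4A1 and COL15A1 were lower, and COL2A1, COL4A2 and COL13A1 did not pass. COL4A2 did pass in DESeq2 (log2 difference -0.20, adjusted p 0.0334), and in edgeR without 92.1 DMSO library 3 (adjusted p 0.00195) or VE-822 library 1 (0.0163). COL2A1 had a log2 difference of 0.53 with that DMSO library and 0.22 without it. In the fits of each line, 7 of the 16 were lower in MP38 and higher in 92.1, and 2 were higher in both (COL13A1 and COL19A1). None was lower in both, and COL4A1 was higher in MP38 and lower in 92.1. Shares among all genes of at least 1 CPM in both lines were not counted, so the counts over the 16 are a description. The largest differences were 4.59 for COL16A1 (SE 0.15, adjusted p 1.56e-12, edgeR), 2.65 for COL9A1 (SE 0.21), 1.67 for COL9A2 (SE 0.12) and 1.65 for COL9A3 (SE 0.15). Without 92.1 DMSO library 3 these were 4.44, 2.44, 1.78 and 1.46. All 5 FACITs among the 16 were higher in this test, COL19A1 included (0.78, SE 0.19), although it rose in both lines.

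Members below 1 CPM in a line are given there as levels, in DMSO and then in VE-822, with no fold change. In MP38, COL8A2, of short-chain networks, was at 0.327 ± 0.0140 and 0.207 ± 0.0676 CPM, and COL6A6, a further type VI chain, at 0.163 ± 0.00693 and 0.0708 ± 0.0366. VE-822 libraries lay below all DMSO libraries for both genes. COL5A2 was at 1.14 ± 0.341 and 0.812 ± 0.108 CPM and COL24A1 at 0.958 ± 0.276 and 0.824 ± 0.0715, and both overlapped. COL12A1, a FACIT of tendon and skin, was at 0.285 ± 0.0365 and 0.609 ± 0.160 CPM, COL21A1 at 0.148 ± 0.0663 and 0.736 ± 0.164, and COL26A1 at 0.264 ± 0.0130 and 0.672 ± 0.124. COL1A1 was at 0.243 ± 0.0430 and 1.21 ± 0.213 CPM. In these last 4 genes the VE-822 libraries lay above all DMSO libraries. COL4A3 (0.347 ± 0.0920 and 0.368 ± 0.0662 CPM), COL14A1 (0.469 ± 0.0314 and 0.461 ± 0.258) and COL28A1 (0.204 ± 0.107 and 0.220 ± 0.0713) overlapped. COL23A1, COL17A1 and COL8A1 were at 0.0843 ± 0.0364, 0.0681 ± 0.0495 and 0.0630 ± 0.0263 CPM in DMSO and at 0.286 ± 0.127, 0.189 ± 0.126 and 0.145 ± 0.0611 in VE-822. COL1A2, COL3A1, COL4A5, COL4A6, COL6A5, COL10A1, COL11A1 and COL25A1 had means of at most 0.136 CPM in both groups.

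In 92.1, COL11A1, partner of COL11A2, was at 0.572 ± 0.0856 and 1.02 ± 0.162 CPM, COL12A1 at 0.110 ± 0.0182 and 0.652 ± 0.0577, and COL20A1 at 0.00893 ± 0.00914 and 0.263 ± 0.0142. These groups did not overlap. COL26A1 was at 0.357 ± 0.0309 and 0.456 ± 0.0595 CPM and COL23A1 at 0.344 ± 0.0556 and 0.464 ± 0.0574. The groups of COL26A1 overlapped, as did those of COL23A1. COL28A1 (0.254 ± 0.0502 and 0.346 ± 0.0150 CPM), COL6A6 (0.133 ± 0.0194 and 0.258 ± 0.0480), COL17A1 (0.0458 ± 0.00807 and 0.192 ± 0.0347) and COL14A1 (0.00568 ± 0.00983 and 0.184 ± 0.00919) did not overlap. COL4A3 was at 0.235 ± 0.0424 and 0.324 ± 0.0570 CPM, COL10A1 at 0.194 ± 0.0299 and 0.246 ± 0.0278, and COL4A4 at 0.272 ± 0.0575 and 0.252 ± 0.0567, and all 3 overlapped. COL8A2 was at 0.0604 ± 0.0247 and 0.160 ± 0.0668 CPM. The other members, COL1A2, COL3A1, COL5A1, COL5A3, COL6A3, COL6A5, COL8A1, COL21A1 and COL22A1, had means of at most 0.0982 CPM in both groups.

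Genes that make, modify and secrete collagen were looked at beside the collagen genes. Of 40 such genes, 35 had at least 1 CPM in MP38, and 11 were higher, 14 lower and 10 did not pass, near the 32.7% higher and 31.8% lower among all genes at that level. In 92.1, 2 of 32 were higher, 18 lower and 12 did not pass, beside 19.4% and 29% among all genes. The median log2 fold change was -0.08 in MP38 and -0.19 in 92.1. In MP38, LOXL3, which crosslinks collagen, had a log2 fold change of 1.07 (adjusted p 3.27e-13), P3H2, a prolyl hydroxylase, 0.82, and the lysyl hydroxylases PLOD2 and PLOD1 0.51 and -0.48. In 92.1 the crosslinking enzyme LOXL2 had -1.04 (adjusted p 6.30e-06, edgeR), BMP1, a procollagen protease, 0.49, TMEM38B -0.52 and COLGALT1, which adds galactose to collagen, -0.47. Between untreated lines 12 of 34 biosynthesis genes were higher in 92.1 and 19 lower, beside 45.9% and 39.5% of all genes, among them P3H2 (log2 fold change -8.06) and LOXL3 (-3.15).

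Collagen receptors and other basement membrane genes included members with opposite directions in the lines. Of the receptors, DDR1, a collagen-binding receptor kinase, was lower in MP38 (log2 fold change -0.49, adjusted p 4.16e-09) and higher in 92.1 (0.48, adjusted p 0.000240, edgeR). The difference of 1.00 passed (SE 0.08, adjusted p 4.34e-08, edgeR). In all, 2 of 7 receptors were higher and 3 lower in MP38, and 2 of 6 higher and 1 lower in 92.1. Among all genes 32.7% were higher and 31.8% lower in MP38, and 19.4% and 29% in 92.1, and the receptor counts are a description only. ITGA10, an integrin chain that binds collagen in cartilage, was lower in MP38 (-0.88), and DDR2 higher (0.53). Of other basement membrane genes, 3 of 12 were higher and 4 lower in MP38, and 5 of 10 higher and 3 lower in 92.1, to be read beside the same shares. The laminin chain LAMA4 was lower in MP38 (-1.01, adjusted p 6.51e-15) and higher in 92.1 (0.91, adjusted p 0.000619, edgeR). LAMA1, another laminin chain, was higher in MP38 (0.94). In 92.1, LAMB2, HSPG2 (perlecan) and LAMA5 were higher, at 0.53, 0.57 and 0.55.

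TGF-beta is a secreted factor known to raise collagen transcription in many cells. Of 18 genes of its pathway, 17 had at least 1 CPM in each line. In MP38, 4 were higher and 7 lower, and in 92.1, 10 were higher and 5 lower, beside 32.7% and 31.8% of all genes in MP38 and 19.4% and 29% in 92.1. The target CCN2 was higher in MP38, at a log2 fold change of 2.02 (SE 0.13, adjusted p 7.48e-11, edgeR). The latency proteins LTBP3 and LTBP4 were lower there (-0.86 and -0.52). In 92.1 LTBP3 and LTBP2 were higher (0.40 and 0.80), as was the ligand TGFB1 (0.67), while TGFB3 was lower (-0.57). Of the cell type markers, FBLN1 was lower in VE-822 in 92.1 (-0.93, adjusted p 2.60e-06, edgeR), where the summed stromal level was 206 to 223 CPM under DMSO and 114 to 118 CPM under VE-822, and KRT8 was lower in MP38 (-0.62). The part of these markers and of TGF-beta in the collagen results was not tested.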

How the data were processed

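Poly(A) RNA from MP38 and 92.1 cells was sequenced in 12 libraries. For each line the authors deposited raw counts by gene; cutadapt 4.8, STAR 2.7.11a and featureCounts 2.0.6 on GRCh38.p13 are listed per the submitters' processing notes, and the annotation and strand setting are not given in the sources used here. The authors also deposited FPKM, which were recomputed here from counts, the tables' gene lengths and library totals within 5e-04, and so carry no factor for composition. Features without a read in any library of a line are not listed in its table.

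Counts were tested in R 4.3.3 with edgeR 4.0.16: filterByExpr (minimum count 10, minimum total 15), TMM factors, a quasi-likelihood F test in each line alone, and Benjamini-Hochberg adjustment over all genes tested, with a call at an adjusted p under 0.05. The untreated lines, and the difference in response, were fitted over the 38997 features of both tables. SE were taken from the F statistic. Fold changes are given for collagen genes whose mean over the libraries of a fit reached 1 CPM; CPM in the text carry the TMM factors of each line's fit. Floors use 3 counts over a group, and intervals are exact at 95%; both cover counting error only. Replicates with 1 number in the labels were checked for pairing, and only the replicate block among the other settings uses it. Other settings were RLE factors, library size only, no count filter, DESeq2 1.42.0, limma 3.58.1 on log2(FPKM + 1), a replicate block, other CPM minimums, the union of the tables, and each library left out.

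Every collagen gene is accounted for. From each list of related genes, up to 4 called members with the smallest adjusted p and at least 1 CPM may be named. The members and lists were chosen with earlier results of these data known. RefSeq promoters were present for 32 of 44 collagen genes, 72.7%, too few for a motif count over the family.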

Additional observations from a re-analysis of the deposited data

Results flagged for a closer look

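For 13 collagen genes of at least 1 CPM in both lines, the response to VE-822 differed between the lines in the joint fit of 12 libraries (edgeR's quasi-likelihood test, Benjamini-Hochberg over all genes). Values are log2 differences, 92.1 minus MP38. The share among all genes of that level in both lines was not counted. COL16A1 had 4.59 (adjusted p 1.56e-12) and the type IX genes COL9A1, COL9A2 and COL9A3 had 2.65, 1.67 and 1.65 (6.82e-08, 2.36e-08 and 2.08e-07). COL18A1 had 1.27, COL7A1 1.25, COL27A1 0.98, COL11A2 0.96, COL6A1 0.86, COL19A1 0.78 and COL6A2 0.65. COL15A1 had -0.62 and COL4A1 -0.44 (adjusted p 0.00189 and 0.000688). Without 92.1 DMSO library 3, COL11A2 had 0.68, COL19A1 1.02 and COL18A1 1.12, and all 3 passed.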

How the results depend on the processing

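Counts of collagen genes moved with the level minimum. With no CPM minimum, 9 of 33 were higher in VE-822 in MP38 and 23 of 36 in 92.1. Among all genes tested, 5750 of 21415 were higher in MP38 and 4658 of 22943 in 92.1. Between untreated lines 12 of 38 were higher in 92.1 and 19 lower, beside 8887 and 9368 of 22856 among all genes. With at least 5 CPM, 6 of 12 were higher in VE-822 in 92.1 and 3 of 16 higher in 92.1 than MP38. Shares among all genes of at least 5 CPM were not counted. The 4 lower calls in 92.1 became 2 with library size only and 1 with limma on log2(FPKM + 1), and ranged from 1 to 5 when single libraries were left out. All genes called lower in 92.1 were 4498, against 2757 with limma and 3343 to 6899 when single libraries were left out, the highest without DMSO replicate 3. With library size only, calls over all genes in 92.1 were 5684 higher and 3534 lower, 61.7% higher against 50.9% with TMM.

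COL11A2 in 92.1 had a log2 fold change of -0.14 without DMSO replicate 3 and 0.25 without DMSO replicate 1. Between untreated lines COL6A2 was -0.12 with library size only and -0.11 with limma. In the difference in response, limma on log2(FPKM + 1), which compresses low levels, gave -0.011 for COL20A1, 0.10 for COL1A1 and 0.67 for COL4A5. These had the opposite sign to the edgeR values of 4.44, -1.53 and -2.43. The edgeR value of COL4A5 did not pass (SE 1.44, adjusted p 0.250) and rested on 2 counts in MP38, both in VE-822 library 2. In limma, COL20A1 and COL1A1 did not pass (adjusted p 0.753 and 0.225). Each gene had a mean below 1 CPM over the libraries of 1 line. The cause was not tested. COL24A1 in that difference (0.68) lost its call in 12 settings, among them DESeq2 (adjusted p 0.0618), RLE factors (0.0540) and leaving out MP38 DMSO replicate 3 (0.220). Of 1239 values of single genes under other settings, 1172 kept their direction and side of the threshold, 45 lost a call, 16 gained one and 6 reversed.

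Libraries of equal number share only that number: their deviations correlated by -0.02 to 0.08, and in 92.1 each library correlated best with its own number. With the replicate block, 3 collagen genes were higher and 10 lower in MP38, 15 and 3 in 92.1, 7 and 11 between untreated lines, and 13 and 3 in the difference. All genes called with the block, with no CPM minimum, were 5494 higher and 5172 lower in MP38 and 4429 and 4333 in 92.1. In MP38 the block lost the call of COL22A1 (adjusted p 0.0541) and gained that of COL2A1 (0.0304), and it lost COL25A1 in 92.1 (0.0587) and COL24A1 in the difference (0.0554, edgeR). In 92.1, limma lost the calls of COL4A1, COL4A2, COL5A2, COL9A1, COL13A1, COL24A1 and COL25A1 (adjusted p 0.0523 to 0.325). Genes below 1 CPM rest on few counts, and their differences were left as levels.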
